A study of Mus musculus with 9 samples.

Results

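Chemokines are small secreted proteins that attract leukocytes along concentration gradients, and they act through receptors of the G protein-coupled family on the surface of the responding cells. Ccr2 is the receptor that draws classical monocytes out of the blood, and in injured skeletal muscle the monocytes that enter through it are known to become macrophages that clear debris and help the fibres to regenerate. The 10 genes described here are the chemokines Ccl2, Ccl6, Ccl7, Ccl8, Ccl9, Ccl11, Cxcl1, Cxcl12 and Cxcl14 and the receptor Ccr2. They were listed by name, with earlier results of these data known, from the 55487 genes of the count table, and 9 of them, all but Cxcl1, passed the filter on low counts that left 14851 genes to test.

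RNA was measured in whole gastrocnemius, a calf muscle, of wild-type mice, C57BL/6 per the labels and C57BL/6J in the study's own text. The 4 Control libraries came from mice in conventional cages, the 2 Unloading libraries from mice whose tails were suspended for 10 days so that the hindlimbs bore no weight, and the 3 Reloading libraries from mice unloaded for 10 days and then returned to their home cage for 1 day. The labels give male mice, whereas female mice appear in the methods of the study for this procedure, and neither states an age. The labels number the libraries without naming the animal of each, so p-values measure the spread between these libraries, part of which may be technical.

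Between 9252443 and 19612101 read pairs were counted in genes per library, so that 1 pair was worth 0.0546 to 0.113 CPM, the count scaled to a common library size with TMM factors (trimmed mean of M-values). A pair of libraries stood apart. The summed level of 12 skin keratinocyte markers was 315 CPM at its highest in the Control group (Control 2) and 142 CPM at its highest in the Reloading group (Reloading 1), and Krt2, a keratin of the epidermis, had 1086 and 502 counts there against 0 to 3 counts in the other 7 libraries. Every count of genes called was therefore repeated without these 2 libraries. Fibre markers, which define the labelled tissue, summed to 194000 to 211000 CPM in Control, 202000 to 209000 CPM in Unloading and 140000 to 154000 CPM in Reloading. Against Unloading 8 of the 10 markers fell (median log2 fold change -0.62), where 19.0% of all tested genes did. The part of this fall in the rises described here was not tested.

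On reloading, 6 of the 9 tested genes rose against Unloading (Ccl2, Ccl6, Ccl7, Ccl9, Cxcl12 and Ccr2), Ccl11 fell, and Ccl8 and Cxcl14 did not pass the threshold. The test was edgeR's quasi-likelihood F-test, with an adjusted p under 0.05 over all tested genes as the threshold. Among all tested genes 18.5% rose and 19.0% fell in this comparison. The median log2 fold change was 1.29 for the 9 genes and 0.03 for all tested genes. Without overlap between the libraries of the groups, 7 of the 9 genes were higher and 1 was lower after reloading, where 31.0% of all tested genes were higher and 29.0% lower without overlap. Ccl2 and Ccl7 had at most 6 and 4 counts in any library outside Reloading and passed the count filter only through Reloading. The counts and the median of the 9 genes thus include genes that could be tested only because they were high there. Leaving out Control 2 and Reloading 1 together left 6 genes higher and 1 lower. In whole muscle, fewer cells of a type and less RNA per cell cannot be told apart.

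**Figure D1:**
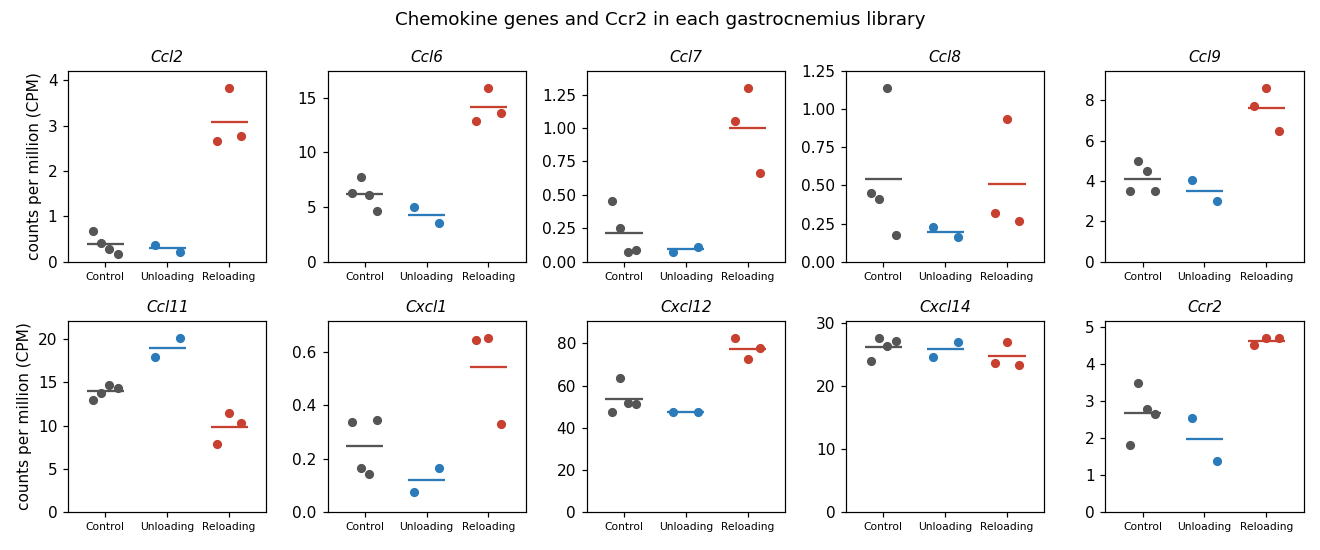
Level of each of the 10 genes in CPM (vertical axis, starting at 0, a scale of its own for each gene) in every library, grouped as Control (4 points), Unloading (2 points) and Reloading (3 points), with a line at each group's mean. The 3 Reloading points of Ccl2 lie between 2.66 and 3.83 CPM, above all other libraries, while those of Ccl11 lie between 7.9 and 11.4 CPM, below all other libraries, and those of Cxcl14 overlap both other groups.

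Ccr2 (ENSMUSG00000049103, chromosome 9, 124101950 to 124113557 on the plus strand of GRCm38) had 1.8, 3.48, 2.79 and 2.66 CPM in Control 1 to 4, 2.55 and 1.37 CPM in Unloading 1 and 2, and 4.51, 4.7 and 4.7 CPM in Reloading 1 to 3. The Reloading libraries lay close together and above all 6 others, while the Unloading libraries overlapped the Control libraries. Against Unloading, Ccr2 rose 2.44-fold after reloading (log2 fold change 1.29 ± 0.27 (SE), adjusted p = 0.00168). The size of this change rested in part on the lower Unloading library, since the log2 fold change was 0.86 (adjusted p = 0.0482) without Unloading 2 and 1.76 without Unloading 1. Against Control the rise was 1.7-fold (log2 0.77 ± 0.22, adjusted p = 0.00979).

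Ccl2, also called monocyte chemoattractant protein 1, is the best known ligand of Ccr2 (ENSMUSG00000035385, chromosome 11, 82035571 to 82037453, plus strand). It had 0.677, 0.414, 0.286 and 0.172 CPM in the Control libraries and 0.374 and 0.219 CPM in the Unloading libraries. In Reloading 1 to 3 it reached 2.66, 3.83 and 2.78 CPM. Before reloading the gene was barely detected, with 2 to 6 counts per library, and each Reloading library held 33 to 53 counts. It rose 10.5-fold against Unloading (log2 fold change 3.39 ± 0.42, adjusted p = 2.23e-05) and 8.24-fold against Control (log2 3.04 ± 0.33, adjusted p = 4.39e-06). Against Unloading this rise and that of Ccl7 lay within each other's error. On pooled counts, 128 in Reloading and 9 in Unloading, the ratio of CPM was 10.9, with a 95% exact (Clopper-Pearson) interval of 5.56 to 24.4. This interval and those given for Ccl7 and Cxcl1 cover counting error only.

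Ccl7, monocyte chemoattractant protein 3, is another ligand of Ccr2 and starts 10.1 kb downstream of Ccl2 (ENSMUSG00000035373, chromosome 11, 82045712 to 82047525, plus strand). Its levels were 0.451, 0.249, 0.0715 and 0.0858 CPM in Control 1 to 4, 0.0749 and 0.109 CPM in Unloading 1 and 2, and 1.05, 1.3 and 0.662 CPM in Reloading 1 to 3. The Reloading libraries again lay above all others, with 13, 18 and 10 counts against 1 and 2 counts in Unloading. The fitted rise was 9.67-fold against Unloading (log2 3.27 ± 0.69, adjusted p = 0.00171) and 4.92-fold against Control (log2 2.30 ± 0.51, adjusted p = 0.00206). Because Unloading held only 3 counts in all, the ratio of pooled CPM, 10.5, has a wide counting interval of 3.34 to 52.8.

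Ccl8, monocyte chemoattractant protein 2, lies in the same cluster, and its mouse form is known to signal through Ccr8 (ENSMUSG00000009185, chromosome 11, 82115185 to 82116799, plus strand). It had 0.451, 0.414, 1.14 and 0.172 CPM in Control, 0.225 and 0.164 CPM in Unloading, and 0.322, 0.94 and 0.265 CPM in Reloading. Control 3 with 16 counts and Reloading 2 with 13 counts stood above the other 7 libraries, which had 2 to 5 counts. The log2 fold change of Reloading against Unloading was 1.38 ± 0.82, with a 95% interval of -0.37 to 3.13 (adjusted p = 0.204), which held both no change and a rise nearly as large as that of Ccl7. Without Reloading 2 the value was 0.59 (adjusted p = 0.657). Against Control the value was -0.17 ± 0.58 (adjusted p = 0.839), and it was 0.57 without Control 3.

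Ccl6 and Ccl9 are myeloid chemokines that bind Ccr1, and they are neighbours on the minus strand of chromosome 11, in a second group of CC chemokine genes. Ccl6 (ENSMUSG00000018927, 83587882 to 83593087) had 6.32, 7.79, 6.07 and 4.63 CPM in the Control libraries, 5.02 and 3.55 CPM in the Unloading libraries and 12.9, 15.9 and 13.6 CPM in the Reloading libraries. Ccl9 (ENSMUSG00000019122, 83572919 to 83578636) had 3.5, 4.97, 4.5 and 3.52 CPM in Control, 4.04 and 3.01 CPM in Unloading and 7.74, 8.61 and 6.49 CPM in Reloading. For both genes the Reloading libraries lay above all others. Ccl6 rose 3.35-fold against Unloading (log2 1.74 ± 0.20, adjusted p = 1.11e-05) and 2.28-fold against Control (log2 1.19 ± 0.16, adjusted p = 2.4e-05). Ccl9 rose 2.18-fold against Unloading (log2 1.12 ± 0.20, adjusted p = 5e-04) and 1.82-fold against Control (log2 0.87 ± 0.17, adjusted p = 0.000607). With 54 or more counts of Ccl6 and 31 or more of Ccl9 in every library, these changes rested on deeper counts than those of Ccl2 and Ccl7.

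The bases before the starts of these neighbours are shown because the genes moved in the same direction. A RefSeq promoter sequence was found for 7 of the 10 genes (none for Ccl2, Ccl7 and Ccl11), and the last 150 bases before the RefSeq start are printed 5′ to 3′ on the gene's strand, chr11:83593088-83593237 for Ccl6 and chr11:83578637-83578786 for Ccl9 (GRCm38.p6, minus strand). Capitals mark matches on either strand to the TATA box, spelled TATAAA, to the site of the stress-responsive factor AP-1, spelled TGANTCA, to that of the inflammatory factor NF-kB, spelled GGNNTTTCC, and to that of the ETS family, which includes a factor of myeloid cells, spelled AGGAAGT. A C/EBP match, spelled TTGCNNAA, was also looked for.
Ccl6: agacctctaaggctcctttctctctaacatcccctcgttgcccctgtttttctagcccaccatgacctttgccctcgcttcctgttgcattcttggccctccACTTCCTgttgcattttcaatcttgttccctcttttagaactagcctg
Ccl9: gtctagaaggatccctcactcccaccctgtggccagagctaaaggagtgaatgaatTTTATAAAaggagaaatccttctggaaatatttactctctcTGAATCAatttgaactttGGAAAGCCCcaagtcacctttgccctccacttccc
In the 250 bases before its start, Ccl6 held a match to the ETS letters at -48 to -42, counted back from the base before the start as -1, and no match to the other motifs. Ccl9 held the AP-1 letters at -53 to -47, the NF-kB letters at -35 to -27 and TATA letters at -94 to -87, where a match on each strand overlaps the other, and again at -224 to -219. Of 32817 distinct promoter windows of this length, 12.4% held the TATA letters, 6.75% the AP-1 letters, 4.93% the NF-kB letters, 7.69% the ETS letters and 9.57% the C/EBP letters. The longest run of bases shared by the windows of Ccl6 and Ccl9 was 13 bases, GCCCTCCACTTCC, and over all 21 pairs of the 7 windows the longest shared run had 6 to 13 bases. A match is a description of the letters and not a bound site.

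Ccl11, or eotaxin, which attracts eosinophils through Ccr3, was the gene that moved the other way (ENSMUSG00000020676, chromosome 11, 82057823 to 82062955, plus strand). Its levels were 13, 13.8, 14.7 and 14.4 CPM in Control 1 to 4, 17.9 and 20.1 CPM in Unloading 1 and 2, and 7.9, 11.4 and 10.3 CPM in Reloading 1 to 3. None of the 3 groups overlapped, Unloading being the highest and Reloading the lowest. After reloading Ccl11 was 1.92-fold lower than in Unloading (log2 fold change -0.94 ± 0.14, adjusted p = 8.57e-05) and 1.41-fold lower than in Control (log2 -0.50 ± 0.12, adjusted p = 0.00375). Scaled by library totals alone, the value against Control was -0.26 (adjusted p = 0.0891), and the median of all tested genes then stood at 0.25 on the log2 scale. Ccl11 lies 22.3 kb from Ccl2 and between Ccl7 and Ccl8, so genes of a single cluster changed in opposite directions. Eosinophil markers were low: Epx had 1 count in all 9 libraries together and Ear6 0, Ear2 had the most of the list with 47 counts (2 to 8 per library), their sum was 0.257 to 0.746 CPM in Control, 0.524 and 0.546 CPM in Unloading and 0.506 to 0.806 CPM in Reloading, and none of the 7 eosinophil markers passed the filter. The receptor Ccr3 had 4 counts in all.

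**Figure D2:**
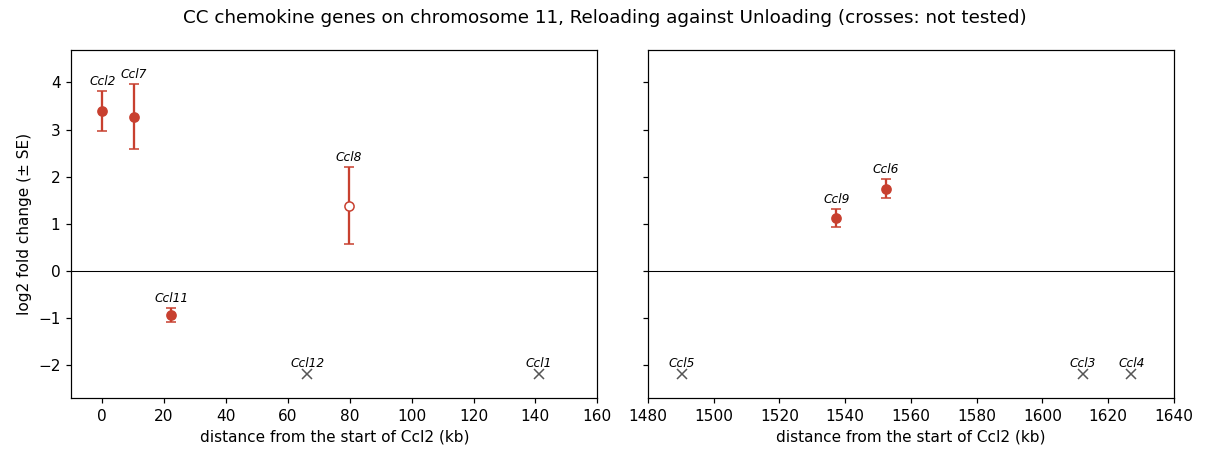
Log2 fold change of Reloading against Unloading with its standard error (vertical axis) for the CC chemokine genes of chromosome 11 against the distance of each gene's first coordinate from that of Ccl2 in kb (horizontal axis, in 2 windows). Filled points passed an adjusted p of 0.05, the open point (Ccl8) did not, and crosses mark genes with too few counts to test. Ccl2 (3.39) and Ccl7 (3.27) stand highest at the left end, Ccl11 (-0.94) lies below 0 at 22.3 kb, and Ccl9 (1.12) and Ccl6 (1.74) lie in the distant window.

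Cxcl1 attracts neutrophils through Cxcr2 and was the gene too low to test (ENSMUSG00000029380, chromosome 5, 90891241 to 90893115, plus strand). It had 3, 2, 2 and 4 counts in Control, 1 and 3 counts in Unloading and 8, 9 and 5 counts in Reloading, or 0.331 to 0.651 CPM in Reloading against 0.0749 and 0.164 CPM in Unloading. Each Reloading library lay above both Unloading libraries, and the lowest of them, at 0.331 CPM, lay below 2 of the Control libraries. The pooled CPM ratio of Reloading to Unloading was 4.21, with a counting interval of 1.43 to 16.8. A fit without the filter gave a log2 fold change of 1.99 ± 0.75 (adjusted p = 0.0501), just outside the threshold. Its receptor Cxcr2 was likewise below the filter, with 9, 4 and 6 counts in Reloading, 0 in both Unloading libraries and 1 count in the 4 Control libraries together, and passed in the fit without the filter (adjusted p = 0.000931 against Unloading and 0.00053 against Control). Summed neutrophil markers lay between 3.62 and 12 CPM in Reloading, 5.91 and 6.83 CPM in Unloading and 1.64 and 9.78 CPM in Control. In several libraries Mmp9 made up much of this sum, with 1.23 to 4.9 CPM in Reloading, 3.52 and 4.92 CPM in Unloading and 0.643 to 5.8 CPM in Control. Of the 13 neutrophil markers 4 were tested and 0 passed against Unloading in edgeR, 0 at an unadjusted p under 0.05 and 0 in DESeq2, though 2 passed with a replicate block by description numbers, while Ly6g had 0 or 1 count in every library.

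Cxcl12 and Cxcl14 are CXC chemokines that many tissues make at rest. Cxcl12, or stromal cell-derived factor 1, is a ligand of Cxcr4 and of the scavenging receptor Ackr3 (ENSMUSG00000061353, chromosome 6, 117168535 to 117181367, plus strand). It had 47.3, 63.8, 51.9 and 51.2 CPM in Control, 47.2 CPM in each Unloading library, and 82.4, 72.4 and 77.9 CPM in Reloading. The Reloading libraries lay above all others, and Unloading lay just below the lowest Control library. Cxcl12 rose 1.64-fold against Unloading (log2 0.72 ± 0.11, adjusted p = 0.000131) and 1.45-fold against Control (log2 0.53 ± 0.09, adjusted p = 0.000208). Its receptors did not pass the threshold with TMM scaling. Ackr3 averaged 16.8 CPM in Reloading and 15.9 CPM in Unloading (log2 0.09 ± 0.12, adjusted p = 0.573), and Cxcr4 averaged 1.28 and 1.79 CPM (log2 -0.47 ± 0.28, adjusted p = 0.212). Scaled by library totals alone, Ackr3 passed at 0.34 (adjusted p = 0.0327), where the median of all tested genes stood at 0.27.

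Cxcl14, which epithelia including skin make in quantity, did not differ beyond the spread between libraries in any comparison (ENSMUSG00000021508, chromosome 13, 56288643 to 56296551, minus strand). It had 23.9, 27.5, 26.3 and 27.1 CPM in Control, 24.5 and 27 CPM in Unloading and 23.6, 27 and 23.3 CPM in Reloading. The Reloading against Unloading difference was -0.06 ± 0.10 on the log2 scale (95% interval -0.28 to 0.15, adjusted p = 0.648), so a change of the size seen for Cxcl12 lay outside the interval. Scaled by library totals alone the value was 0.18 (adjusted p = 0.153). Control 2 and Reloading 1, the libraries with keratinocyte markers, were not set apart in Cxcl14. In Cxcl12 each was the highest of its group, at 63.8 and 82.4 CPM.

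The bases before the starts of these CXC genes are shown to set a gene that rose beside one that did not pass the test, chr6:117168385-117168534 for Cxcl12 (plus strand) and chr13:56296552-56296701 for Cxcl14 (minus strand), printed as for Ccl6 and Ccl9.
Cxcl12: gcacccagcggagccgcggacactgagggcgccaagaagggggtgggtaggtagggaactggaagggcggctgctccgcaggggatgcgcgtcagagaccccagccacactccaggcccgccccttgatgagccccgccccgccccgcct
Cxcl14: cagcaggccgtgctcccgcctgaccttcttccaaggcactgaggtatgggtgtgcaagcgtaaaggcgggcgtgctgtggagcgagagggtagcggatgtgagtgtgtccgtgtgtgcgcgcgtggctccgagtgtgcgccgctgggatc
Neither window of 250 bases held a match to any of the 5 motifs, hence no capitals. They were richer in G and C, at 64.4% for Cxcl12 and 59.6% for Cxcl14, than the windows of Ccl6 (45.2%) and Ccl9 (43.6%).

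**Figure D3:**
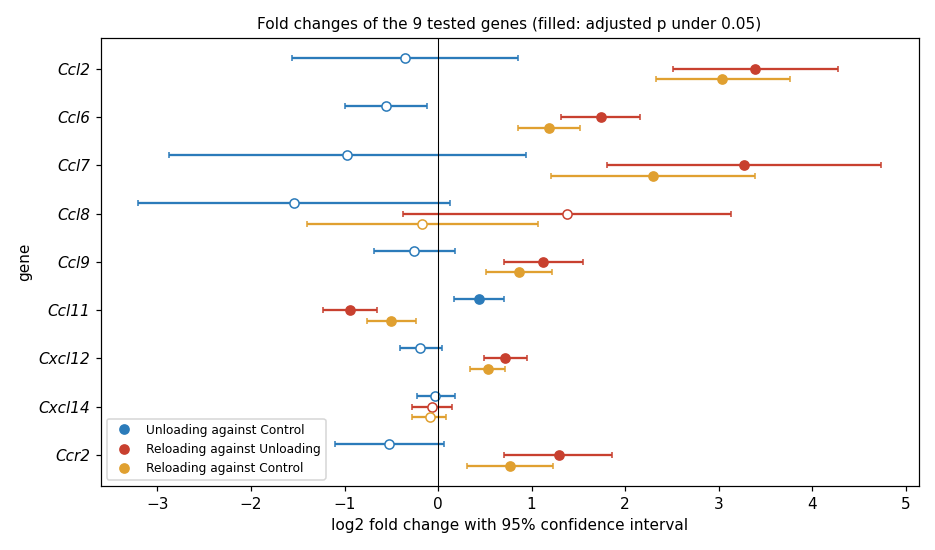
Log2 fold changes with 95% confidence intervals not adjusted for multiple tests (horizontal axis) of the 9 tested genes (vertical axis) for Unloading against Control, Reloading against Unloading and Reloading against Control. Filled points passed an adjusted p of 0.05. In Unloading against Control the only filled point is Ccl11 at 0.44, and the interval of Cxcl14 spans 0 in all 3 comparisons.

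In the comparison of Unloading with Control, 1 of the 9 tested genes passed the threshold. Ccl11 rose 1.36-fold (log2 0.44 ± 0.13, adjusted p = 0.0378), where 4.40% of all tested genes rose and 5.50% fell. This call rested on every library of the 2 groups: without any 1 of the 6, Control 1 to 4 or Unloading 1 and 2, the log2 fold change of Ccl11 was 0.35 to 0.52 and its adjusted p 0.0528 to 0.205. The log2 fold changes of the other 8 genes were all below 0, from -1.54 ± 0.78 for Ccl8 (adjusted p = 0.232, and -0.8 without Control 3) to -0.03 ± 0.10 for Cxcl14 (adjusted p = 0.895), with a median over the 9 genes of -0.35 beside 0 for all tested genes. Ccr2 was at -0.52 ± 0.27 (adjusted p = 0.25) and Ccl2 at -0.35 ± 0.57 (adjusted p = 0.744). Ccl6, at -0.56 ± 0.20 (adjusted p = 0.0957), passed only without Control 4, at -0.67 (adjusted p = 0.0394).

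Set against Control, 6 genes rose after reloading and Ccl11 fell, the same calls as against Unloading. Of all tested genes 22.1% rose and 21.3% fell in this comparison, and the median log2 fold change was 0.77 for the 9 genes and 0.01 for all tested genes. The comparison shares its Reloading libraries with the one against Unloading and is not independent of it. Ccl2 and Ccl7, which passed the filter only through Reloading, are again among the 6. Without Control 2 and Reloading 1 the counts were again 6 and 1.

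Per kilobase of exon, the levels of the 10 genes spanned a wide range. In Control, Cxcl14 stood highest at 14.3 ± 0.885 CPM per kb (SD, n = 4), followed within that spread by Ccl11 at 12.9 ± 0.716 and, further below, by Cxcl12 at 6.55 ± 0.875, Ccl6 at 3.46 ± 0.721 and Ccl9 at 1.35 ± 0.242. Ccl8, at 1.07 ± 0.817 CPM per kb, could not be separated from Ccl9, and Ccr2 (0.397 ± 0.102), Ccl2 (0.34 ± 0.191), Ccl7 (0.267 ± 0.221) and Cxcl1 (0.132 ± 0.0576) lay within each other's spread from one neighbour to the next. In Unloading, Ccl11 stood first at 17.6 ± 1.45 CPM per kb (n = 2), above Cxcl14 at 14.1 ± 0.973. In Reloading, Cxcl14 led at 13.5 ± 1.14 CPM per kb (n = 3), while Cxcl12 (9.49 ± 0.616), Ccl11 (9.12 ± 1.66) and Ccl6 (7.87 ± 0.881) lay within each other's spread only from one neighbour to the next. Ccl2, at 2.72 ± 0.567 CPM per kb, lay within the spread of Ccl9 at 2.5 ± 0.349. The exon length is summed over all annotated transcripts, 6760 bases for Ccr2 and 8176 for Cxcl12, which lowers the value of a gene whose main transcript is shorter.

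Monocyte and macrophage markers moved with these genes. Against Unloading 15 of 19 tested markers of the list were higher after reloading, where 18.5% of all tested genes were, and none was lower, where 19.0% of all tested genes were. Their median change was 1.07 on the log2 scale. The largest changes were those of Cd68, a lysosomal protein of macrophages (3.93 ± 0.17, adjusted p = 1.12e-09), Chil3, a chitinase-like protein of activated macrophages (3.46 ± 0.83, adjusted p = 0.0061), and Trem2, a lipid-sensing receptor (1.66 ± 0.45, adjusted p = 0.00902). Chil3 had 0 counts in each Control library, 2 and 0 in Unloading and 7, 11 and 15 in Reloading. Trem2 had 3 to 7 counts in the libraries outside Reloading and 11 to 15 in Reloading. Both passed the filter only through Reloading and count among the 15. The 20 markers summed to 104 to 127 CPM in Control, 111 to 113 CPM in Unloading and 207 to 237 CPM in Reloading. Ly6c2, a defining marker of the monocytes that carry Ccr2, had 1 to 4 counts per library and was not tested. The part of these cells in the changes of the chemokine genes was not tested.

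Relative to the same markers, Ccr2 after reloading overlapped the range of Control and Ccl2 lay above it. Cd68 gained more CPM against Unloading than any other marker of the list (mean 3.05 to 45.9 CPM). It was left out of this sum, a choice made after its values were seen. Ccr2 amounted to 2.32% ± 0.589 (SD, n = 4) of the summed markers in Control, 1.8% ± 0.798 (n = 2) in Unloading and 2.69% ± 0.144 (n = 3) in Reloading, and the 3 Reloading libraries (2.53 to 2.79%) overlapped the Control libraries (1.53 to 2.89%) and lay above both Unloading libraries (1.24 and 2.37%). Ccl2 amounted to 0.169 to 0.575% in Control, 0.198 and 0.348% in Unloading and 1.62 to 2.06% in Reloading, with no overlap. Ccl6 (7.86 to 8.55% in Reloading) also lay above all other libraries (3.22 to 6.47%), and so did Ccl7 (0.393 to 0.699% against 0.0575 to 0.383%), though by a narrow margin over Control 1. Ccl9, at 3.86 to 4.72% in Reloading, overlapped Control at 2.97 to 4.13%. With Cd68 kept in the sum, the mean for Ccr2 was 2.13% in Reloading and 2.27% in Control, so the order of these means turned. The Reloading libraries (1.99 to 2.21%) then also overlapped the Unloading libraries (2.29 and 1.21%). In the same sum Ccl2 (1.29 to 1.62% against 0.164 to 0.567%) stayed clear of the other libraries, Ccl7 overlapped them, and Ccl6 (6.23 to 6.73% in Reloading) overlapped Control at up to 6.31%. These ratios are given without a test.

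**Figure D4:**
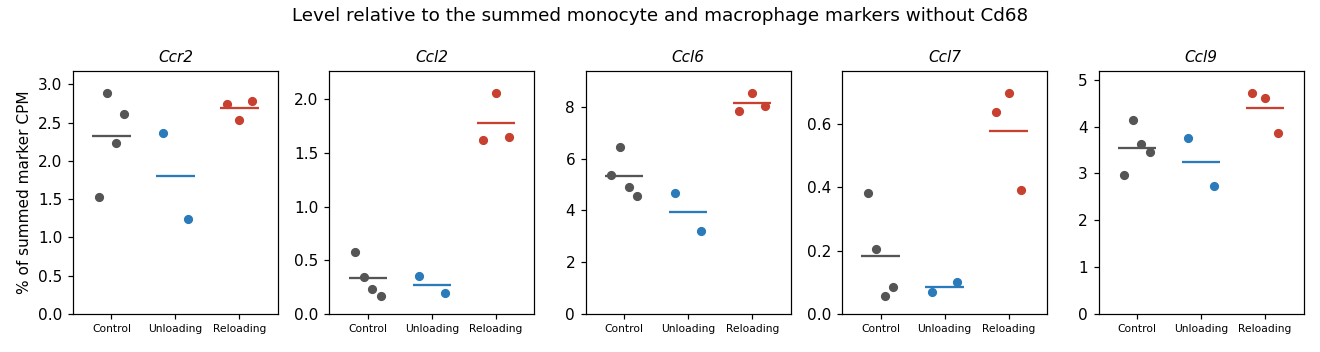
CPM of Ccr2, Ccl2, Ccl6, Ccl7 and Ccl9 as a percent of the summed CPM of the monocyte and macrophage markers without Cd68 (vertical axis, from 0) in every Control, Unloading and Reloading library, with a line at each group's mean. The Reloading points of Ccl2 (1.62 to 2.06%) stand apart from all other libraries, whereas those of Ccr2 (2.53 to 2.79%) overlap Control.

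Other cell types that make or display chemokines were looked at by the same means. As the background here, 18.5% of all tested genes were higher and 19.0% lower after reloading than in Unloading (median log2 fold change 0.03). Against Unloading, 9 of 10 endothelial markers rose after reloading (median log2 fold change 0.79), and their sum lay at 343 to 429 CPM against 208 to 212 CPM. Of the 10 smooth muscle and pericyte markers 9 rose and 1, Rgs5, fell (median log2 fold change 1.19), and their sum lay at 544 to 572 CPM against 466 to 503 CPM. Satellite cell markers, which label the muscle stem cells, were higher in 4 of 7 cases, with a sum of 224 to 243 CPM against 165 to 173 CPM. Itga7, averaging 168 CPM in Reloading and 118 CPM in Unloading, was the largest term of this sum. The 3 uncalled markers had lower means in Reloading: Pax7 (3.07 against 3.45 CPM), Myf5 (1.38 against 1.77 CPM) and Cdh15 (23.8 against 28.9 CPM). The sum of the fibro-adipogenic progenitor markers, which label connective tissue cells that are a known source of Ccl11 and Cxcl12, was 1630 to 1710 CPM in Unloading and 1330 to 1510 CPM in Reloading, with 4 of 11 markers higher and 3 lower. The range of this sum in Control was 1210 to 1560 CPM. Gsn was its largest term and one of the lower markers, at 968 and 1060 CPM in Unloading and 578 to 591 CPM in Reloading. Among the higher markers, Col1a1 and Col3a1 averaged 58.2 and 71.4 CPM in Unloading and 187 and 186 CPM in Reloading. None of the 11 lymphocyte markers passed the filter, and their sum was 0.823 to 2.4 CPM over all libraries. As for the macrophages, the part of these cell types was not tested.

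The other genes of the chemokine system were called in both directions. Of 32 further ligands, 31 were matched and 10 tested, and against Unloading 1 was higher and 4 were lower after reloading, and the median of the 10 changes was 0.21 on the log2 scale. Of all tested genes 18.5% were higher and 19.0% lower, and with library totals only 2 of the ligands were higher and 2 lower. Cx3cl1, or fractalkine, a membrane-bound chemokine, rose from 0.749 and 1.31 CPM in Unloading to 4.51, 3.76 and 2.12 CPM in Reloading (log2 1.69 ± 0.38, adjusted p = 0.00282). Its receptor Cx3cr1, found on patrolling monocytes and macrophages, rose with it, from 0.225 and 0.0546 CPM to 1.29, 0.795 and 0.927 CPM (log2 2.88 ± 0.61, adjusted p = 0.0018). In this ligand and receptor pair the Reloading libraries lay above all others. Cx3cr1 had only 3 and 1 counts in Unloading, 1 to 5 in Control and 11 to 16 in Reloading. It passed the filter only through Reloading, and its fold change is imprecise. The lower ligands were Ccl24, a second eotaxin (log2 -1.35 ± 0.36, adjusted p = 0.00794), Ccl25 (-0.47 ± 0.16, adjusted p = 0.0346), Ccl27a (-0.68 ± 0.18, adjusted p = 0.00894) and Ccl28 (-1.62 ± 0.48, adjusted p = 0.0156). The last 3 are known from thymus and epithelia. DESeq2 called 4 of the ligands, without Ccl25 (adjusted p = 0.0712). With library totals only, neither Ccl25 (adjusted p = 0.289) nor Ccl27a (adjusted p = 0.0678) passed. The count of ligands called, 5, was 3 without Reloading 2, 3 without Unloading 1 and 2 without Unloading 2. Ccl24 and Ccl11 thus fell together, from 1.72 and 1.31 CPM in Unloading to 0.645, 0.579 and 0.53 CPM in Reloading for Ccl24. Against Control, 3 ligands were higher after reloading and 3 were lower, where 22.1% and 21.3% of all tested genes were. Among the higher was Cxcl10 (log2 1.61, adjusted p = 0.0133), with 1 to 8 counts in Control and 10 to 21 in Reloading. Cxcl10 passed the filter only through Reloading. In Unloading against Control 0 of the 10 ligands passed in edgeR, 2 had an unadjusted p under 0.05 and 0 passed in DESeq2.

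The ligands between and beside the measured ones on chromosome 11 were near the limit of detection. Ccl12, a further mouse ligand of Ccr2 at 66.3 kb from Ccl2, had 15 counts over the 9 libraries, Ccl5 had 10, Ccl3 had 3, Ccl4 had 1 and Ccl1 had 0. Among the further ligands below the filter, Cxcl13 (48 counts), Ppbp (30) and Cxcl11 (27) had the most, and in the fit without the filter their adjusted p against Unloading was 0.505, 1 and 0.453.

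Among 23 further receptors 7 were tested, and against Unloading Cx3cr1 was higher and 2 were lower after reloading, and the median of the 7 changes was 0.09 on the log2 scale. Of all tested genes 18.5% were higher and 19.0% lower, and with library totals only 2 receptors were higher and 2 lower. Ccrl2, an atypical receptor that does not signal, fell from 7.56 and 8.63 CPM to 4.84, 4.56 and 3.97 CPM (log2 -0.87 ± 0.16, adjusted p = 0.000608). Ackr2, which scavenges inflammatory CC chemokines, fell from 2.17 and 1.97 CPM to 0.806, 1.01 and 1.13 CPM (log2 -1.05 ± 0.28, adjusted p = 0.00902). The call of Ackr2 was lost without Unloading 1 (adjusted p = 0.052) and with a replicate block by description numbers (adjusted p = 0.0728). In Ccrl2 the Reloading libraries lay below all others, while in Ackr2 they overlapped Control (0.857 to 1.35 CPM). Against Control, Cx3cr1 rose (log2 1.52 ± 0.43, adjusted p = 0.00994) and Ccrl2 fell (log2 -0.86 ± 0.14, adjusted p = 0.000174), and the first of these calls was lost without Reloading 1. In Unloading against Control 0 of the 7 receptors passed in edgeR, 1 had an unadjusted p under 0.05 and 0 passed in DESeq2.

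Ccr1, the receptor of Ccl6 and Ccl9, was below the filter with 2, 7, 6 and 2 counts in Control, 10 and 6 in Unloading and 7, 6 and 17 in Reloading, and the groups overlapped. The remaining receptors below the filter with 20 counts or more were Ackr4 (68), Ccr10 (39), Ccr9 (37) and Xcr1 (24), and in the fit without the filter none of them passed against Unloading (adjusted p 0.266 to 0.85).

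Genes that act with the chemokines when leukocytes leave the blood were looked at as well. Of 15 tested adhesion genes 11 were higher after reloading than in Unloading, where 18.5% of all tested genes were, and none was lower, and their median change was 0.89 on the log2 scale. Without Control 2 and Reloading 1, 8 were higher. Itgam, the alpha chain of a myeloid integrin and also a member of the macrophage list, changed most (1.46 ± 0.31, adjusted p = 0.0018), followed by Icam1, an endothelial ligand of such integrins (1.33 ± 0.29, adjusted p = 0.0022), and, at 0.95 each, Vcam1, which binds an integrin of monocytes and lymphocytes (SE 0.21, adjusted p = 0.00251), and Icam2, an endothelial adhesion molecule (SE 0.29, adjusted p = 0.0189). Among 22 tested genes of chemokine receptor signalling 11 were higher and 1 was lower, with a median of 0.67, where 18.5% and 19.0% of all tested genes were. Without the same 2 libraries the counts were 9 and 1. The largest changes were those of Vav1, an exchange factor of blood cells (1.81 ± 0.46, adjusted p = 0.00619), Rgs16, which shortens G protein signals (1.68 ± 0.56, adjusted p = 0.0292), and Rac2, a GTPase of blood cells (1.04 ± 0.32, adjusted p = 0.0183). Rgs16 was high in 2 of the 3 Reloading libraries (4.43 and 2.46 CPM), and Reloading 3, at 0.728 CPM, lay between the Unloading libraries at 0.973 and 0.601 CPM. Rgs2, another regulator of G protein signals, was the gene that was lower (-0.81 ± 0.21, adjusted p = 0.00637).

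Across the 9 libraries, the tested genes whose centred log2 CPM lay closest to that of Ccl2 were 1700101I11Rik, Lexm, Gm49774, Nr4a3 and Shc4, with root mean square differences of 0.301 to 0.363 beside a median of 1.35 over all tested genes. Nr4a3, a nuclear receptor known as an early response gene, averaged 3.66 CPM in Control, 3 CPM in Unloading and 30.3 CPM in Reloading. Close to Ccl7 were Atp1b4, Chil1, Gm7816 and Lrp8 (0.341 to 0.38, median over all genes 1.04). Closest to Ccr2 were Gm9083, Gm10080, Klhl34, Marcksl1 and Helz2 (0.0989 to 0.205, median 0.605). None of the genes named here was a chemokine gene or a marker of the macrophage list.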

How the data were processed

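The authors aligned reads with STAR 2.7.3a to GRCm38.p6 and counted read pairs per gene without strand in featureCounts 2.0.3 with the Ensembl release 102 annotation. The deposited table holds raw counts of 55487 genes in 9 libraries (labels and study methods differ on paired or single reads). The authors' DESeq2 tables of fold changes and p-values were used for gene symbols only. The members and lists were chosen with earlier results of these data known. Testing used edgeR 4.0.16 under R 4.3.3: filterByExpr (minimum count 10, minimum total 15, 14851 of 34376 genes with counts kept), TMM scaling, 1 quasi-likelihood fit of all 9 libraries by group, and two-sided F-tests with Benjamini-Hochberg adjustment within each comparison. CPM use TMM-scaled totals. Standard errors and intervals derive from the F statistic. Alternatives were DESeq2 1.42.0, other scalings, no filter, 2 groups only, each library left out and replicate blocks. The code was tested on simulated data. Exons of the 10 genes overlapped no exon of another gene, though near-identical copies could still share reads.

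All members were named. Of the other ligands and receptors, genes called in either comparison with Unloading or untested with at least 20 counts were to be named, of the other lists the 3 largest called changes, and of all tested genes the 5 most like Ccl2, Ccl7 and Ccr2. Other names (Ccl1, Ccl3, Ccl4, Ccl5, Ccl12, Ccr3, Cxcr4, Ackr3 and Cxcl10) were added after their values were seen. Further names outside these rules include Mmp9, Itga7, Pax7, Myf5, Cdh15, Rgs5 and Rgs2. Some genes that fall under these rules are not reported here. Replicate numbers in the sample titles did not pair the libraries (correlation of deviations from group means -0.201 to 0.0752). By the numbers in the sample descriptions, matched Reloading and Control libraries had 0.361, 0.143 and 0.155 over 3 pairs, the first pair being the libraries with keratinocyte markers. Unmatched Reloading and Control libraries reached 0.117, and matched pairs with Unloading had 0.0172 to 0.0752. Whether these numbers pair the libraries thus stays undecided.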

Additional observations from a re-analysis of the deposited data

How the results depend on the processing

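Over 17 alternatives, the 27 fold changes of the 9 tested genes kept their direction and side of the threshold in 440 of 459 cases. The 6 rises and the fall of Ccl11 against Unloading held in every alternative. Against Control the 6 rises held too, and 6 members were called with library totals only. Members called in Unloading against Control numbered 0 to 1 when a library was left out, the 1 call without Control 4 being Ccl6. Other ligands called against Unloading numbered 2 to 5 with a library left out and 3 with a replicate block by description numbers. In Unloading against Control 1 ligand was called without the filter, and the other receptors called in Reloading against Control fell to 1 without the skin-bearing libraries and ranged from 1 to 2 with a library left out. For the other lists, the skin-bearing libraries were also left out by a choice made after the data were seen, and against Unloading 14 macrophage markers, 8 adhesion and 9 signalling genes were then higher (15, 11 and 11 with all libraries). The replicate block by description numbers changed no call of the 9 genes (Ccl2 against Control 3.31, Ccl11 in Unloading against Control 0.58).

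Values that changed sign were all uncalled, and the cause was not tested. For Cxcl14 they were 0.18 (library totals only) and 0.01 (without Unloading 2) against Unloading, 0.01 (no filter), 0.04 (without Unloading 1) and 0.02 (description block) in Unloading against Control, and 0.15 (library totals only) in Reloading against Control. For Ccl8 in Reloading against Control they were 0.07 (library totals only), 0.57 (without Control 3), 0.05 (without Reloading 1) and 0.17 (without Reloading 3), and for Ccl2 in Unloading against Control 0.03 (without Unloading 2). With a library left out, Cxcl14 ranged from -0.14 to 0.01 against Unloading and from -0.1 to 0.04 in Unloading against Control, Ccl2 in Unloading against Control from -0.72 to 0.03, and Ccl8 in Reloading against Control from -0.95 to 0.57. Library totals alone called 6340 genes against Unloading, 82.8% of them higher, where TMM called 5562 with 49.3% higher, and 7512 against Control, 80.2% higher, where TMM called 6456 with 50.9% higher. Without Unloading 1 only 120 genes were called in Unloading against Control, and without Control 3 949, against 1470. Ccl2, Ccl7, Ccl8 and Cxcl1 had under 10 counts in most libraries outside Reloading, which limits their precision. The same held for Cx3cr1, Cxcl10, Chil3, Trem2 and Vav1. An arm left with 1 library was assumed to vary like the others.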
